A study of Mus musculus with 8 samples.

Results

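Transcripts of 10 genes of the Wnt pathway and of colon stem cells were followed in 8 mouse tumour samples. The members were Ctnnb1, Apc, Axin2, Nkd1, Rnf43, Znrf3, Lgr5, Sox9, Tcf7 and Tcf7l2, taken by GENCODE M21 symbol from the 56691 gene identifiers of the count table, and all 10 were found. The tumours were grown from MC38, a mouse colon adenocarcinoma line, in C57BL/6J mice, whose immune system is intact. There were 4 tumours from mice given C26, an agent known here only by its code, for 2 weeks (10 mg/kg, given every second day), and they were set against 4 control tumours. What the control mice received is not stated in the sources used here. Nor do they say whether the samples are separate animals, so the p-values measure the spread between these samples, which may be technical.

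In the canonical Wnt pathway, a Wnt ligand binds a Frizzled receptor and an LRP co-receptor, and beta-catenin, encoded by Ctnnb1, then escapes degradation and enters the nucleus. Without a ligand, a destruction complex built on the scaffolds APC and AXIN marks beta-catenin for breakdown. In the nucleus beta-catenin works with factors of the TCF/LEF family, and several of the genes it switches on (Axin2, Nkd1, Rnf43, Znrf3) restrain the pathway in turn. In the gut this signal maintains the stem cells at the crypt base, which Lgr5 marks, and loss of APC is a common early event in colon cancer.

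Sox9 was the 1 member of 7 tested that changed, and none rose, where 3.64% of all tested genes were higher and 4.12% lower in C26. It was lower in C26 tumours, at 67.3 ± 9.81 CPM against 93.8 ± 14.0 CPM in control (SD, n = 4 each). The other 6 tested members did not pass an adjusted p of 0.05, 2 of them (Ctnnb1 and Axin2) with an unadjusted edgeR p under 0.05. Of all 15755 tested genes, 4030 had an unadjusted p under 0.05. The median log2 fold change of the 7 was 0.13, against 0.00528 over all tested genes. Lgr5, Nkd1 and Rnf43 had too few reads for the main test.

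Promoter windows were read from RefSeq (GRCm38.p6) for 6 members, from 250 bases before to 50 bases after a transcript start. They were searched on both strands for the TCF/LEF word CTTTGAA and its variants, namely CTTTGAT, then also CTTTGTA and finally CTTTGTT, which share their first 5 letters. Of the 10 windows of these members 1 held a word, against 16.9% of all 32851 windows. Shown first, since it holds the word, is that window, at an internal start of Tcf7l2 (chr19:55895071-55895370, plus strand), with the word in capitals, and then the window of Axin2 (chr11:108920099-108920398, plus strand), the usual reporter of the pathway, which held none.
Tcf7l2 internal start: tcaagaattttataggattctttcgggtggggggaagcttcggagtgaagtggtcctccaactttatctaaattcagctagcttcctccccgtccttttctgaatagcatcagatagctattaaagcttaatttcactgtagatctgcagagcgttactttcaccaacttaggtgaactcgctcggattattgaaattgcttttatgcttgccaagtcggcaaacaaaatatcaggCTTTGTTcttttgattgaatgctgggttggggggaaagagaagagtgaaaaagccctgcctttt
Axin2: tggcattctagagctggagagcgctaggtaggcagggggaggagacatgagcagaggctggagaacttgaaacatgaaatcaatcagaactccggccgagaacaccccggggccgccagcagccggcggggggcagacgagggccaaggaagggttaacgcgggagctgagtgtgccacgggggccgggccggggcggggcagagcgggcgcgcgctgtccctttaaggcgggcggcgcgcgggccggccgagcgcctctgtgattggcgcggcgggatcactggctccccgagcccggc
The word in the Tcf7l2 window began at base 237 of 300. A match describes letters only, and a window without one says nothing about binding elsewhere at the gene.

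Total counts ran from 17075176 to 21517425 per library. Levels are given as CPM, counts scaled to library size, on the TMM scale, which corrects for composition. Levels of different genes were compared per kilobase of exon. That length sums all annotated exons of a gene, and such comparisons depend on it. Of 15755 genes tested with edgeR's quasi-likelihood test, 1223 passed an adjusted p of 0.05, or 7.76%. Of the changed genes 574 were higher and 649 lower in C26, so that 46.9% were higher, against 78.7% when libraries were scaled by total count. Groups did not overlap for 16.1% of the tested genes. Skeletal muscle transcripts were uneven. Their 15 listed markers summed to 52.6, 760, 168 and 29.1 CPM in C26 libraries 1 to 4, against 12.1, 49.7, 11.8 and 11 CPM in control libraries 1 to 4, and 1 of 12 tested markers rose (Myh1), while DESeq2 called 9.

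The colon label was checked against 20 genes of colon epithelium. Of these, 18 had fewer than 100 reads over all 8 libraries, and Cdx2 and Hnf4a, which encode intestinal identity factors, had 0, as did Car1, Alpi and Tff3. A count of 0 allows up to 3 reads, or 0.0191 CPM over the 8 libraries. Epcam, a general epithelial surface marker, had 19 reads in all, Krt8 had 3, Krt18 had 2 and Krt20 had 5. Krt8 and Krt18 have many processed pseudogene copies, and reads shared with them may not have been assigned. The summed level of the list was 5.61 to 9.40 CPM in C26 libraries and 7.74 to 10.9 CPM in control libraries. Neither of the 2 tested genes passed in edgeR or DESeq2, and 0 had an unadjusted p under 0.05. Cdh1, the gene for E-cadherin, had the smaller p, at 2.77 ± 0.390 CPM in C26 and 3.35 ± 0.605 CPM in control (SD, n = 4 each, edgeR adjusted p = 0.415). Apart from Cdh1 and Lgals4, transcripts that define colon epithelium were thus at or near 0, and the label colon rests on the origin of the line.

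**Figure D1:**
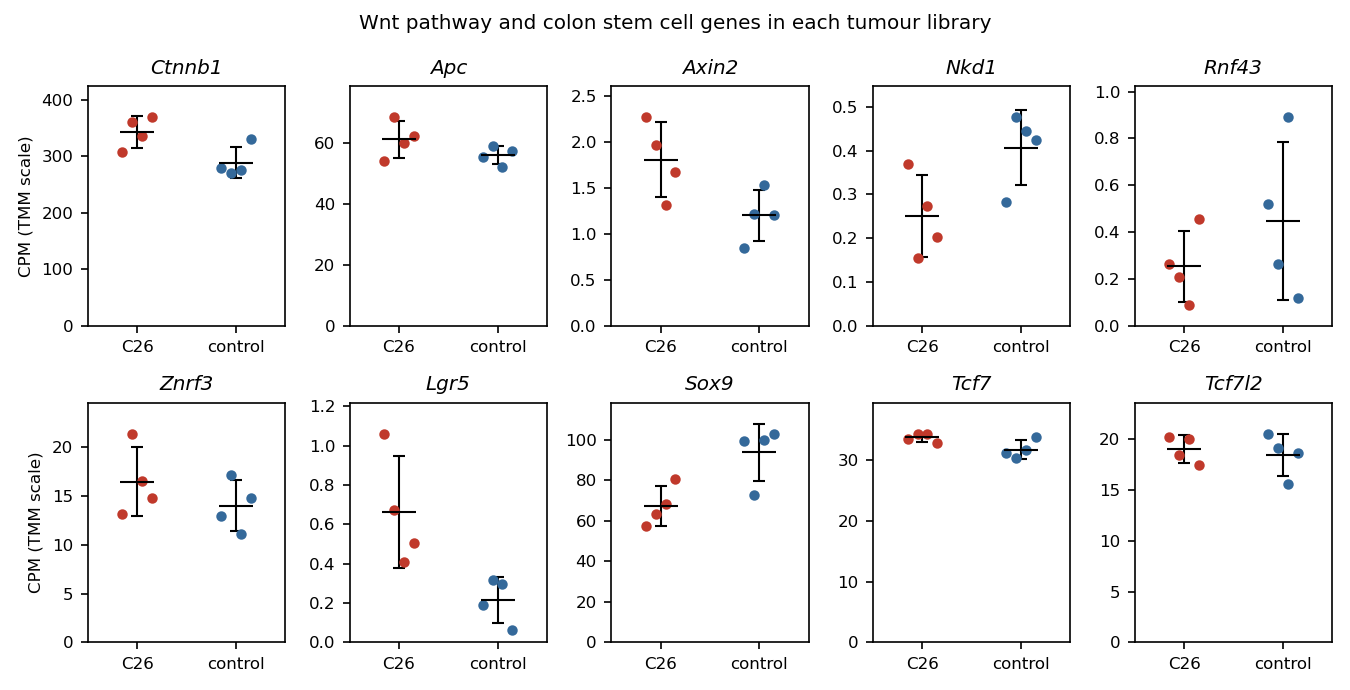
Level of each of the 10 genes in CPM on the TMM scale (vertical axes, each from 0) in the 4 C26 libraries (red, left) and the 4 control libraries (blue, right), with the mean (long bar) and SD. The groups are apart for Lgr5 and overlap for the other genes, and for Sox9 control library 2 at 72.9 CPM lies below C26 library 4 at 80.5 CPM.

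Ordered by level per kilobase, Ctnnb1 stood far above the rest, at 66.1 ± 5.41 CPM per kb in C26 and 55.6 ± 5.28 CPM per kb in control (SD, n = 4 each). Next came Sox9 (16.3 ± 2.37 in C26 and 22.7 ± 3.39 in control), then Tcf7 (12.9 ± 0.272 and 12.1 ± 0.562) and Apc (3.81 ± 0.370 and 3.48 ± 0.187). Each of these 4 was separated from its neighbours in the order in both groups, with no overlap between libraries. Tcf7l2 (2.16 and 2.10) and Znrf3 (2.09 and 1.78) overlapped each other. Axin2 followed at 0.329 and 0.218 CPM per kb. Lgr5, Nkd1 and Rnf43 lay at the bottom, between 0.0388 and 0.0645 CPM per kb in C26 and between 0.0210 and 0.0893 CPM per kb in control, and overlapped their neighbours within that set. Among those 3, Lgr5 had the highest mean in C26 and the lowest in control.

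Sox9 (chromosome 11, 112782224 to 112787760) encodes a transcription factor of the crypt base and of cartilage progenitors. It had 57.4, 63.3, 68.2 and 80.5 CPM in C26 libraries 1 to 4, against 99.2, 72.9, 100 and 103 CPM in control libraries 1 to 4. Control library 2 was the low one of its group, and the groups overlapped only through it and C26 library 4. The log2 fold change was -0.48 ± 0.118 (SE, 95% interval -0.73 to -0.22, edgeR adjusted p = 0.0285). In a bulk sample, fewer cells of a type and less RNA per cell cannot be told apart. The call rested on nearly every library. It was kept without C26 library 4 or control library 2, and was lost without any other single library, with the log2 value between -0.59 and -0.41 and adjusted p up to 0.0856. When the fit took muscle RNA into account as a covariate, the log2 value was -0.19 (edgeR adjusted p = 0.592). Without C26 libraries 2 and 3, which held the most muscle RNA, the value was -0.44 (adjusted p = 0.18). All 12 tested muscle markers had a positive log2 value, so covariate and treatment cannot be fully separated. Of all genes 122 passed with the covariate, against 1223 in the main fit. A call lost with this covariate, here or below, cannot be assigned to muscle RNA.

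Among the members of the signalling core, Ctnnb1 and Apc were present at depth, and neither passed the threshold. Ctnnb1 (chromosome 9, 120929216 to 120960507), the beta-catenin gene, had 307, 361, 336 and 369 CPM in C26 libraries 1 to 4, against 280, 271, 275 and 330 CPM in control libraries 1 to 4. In C26, 3 libraries lay above every control library, and C26 library 1 fell below control library 4. The log2 fold change was 0.25 ± 0.0813 (SE, 95% interval 0.08 to 0.42), which missed the threshold (edgeR adjusted p = 0.0693). Apc (chromosome 18, 34220924 to 34322552), the scaffold of the destruction complex, had 54.1, 68.6, 60.3 and 62.3 CPM in C26 libraries, against 55.5, 59.2, 52.2 and 57.5 CPM in control libraries. Its groups overlapped, and the interval of its log2 fold change ran from -0.04 to 0.30 (edgeR adjusted p = 0.327).

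Axin2 (chromosome 11, 108920349 to 108950783) encodes a scaffold that beta-catenin induces and that feeds back on it. It had 43, 38, 29 and 33 reads in C26 libraries 1 to 4 (2.27, 1.97, 1.32 and 1.67 CPM), against 18, 23, 31 and 20 reads in control libraries 1 to 4 (0.849, 1.22, 1.53 and 1.21 CPM). Most C26 libraries were above most control libraries, with C26 library 3 below control library 3. The log2 fold change of 0.58 ± 0.263 (SE, 95% interval 0.03 to 1.14) did not pass (edgeR adjusted p = 0.174). Its constitutive relative Axin1 made up 98.3% of the AXIN level per kilobase in C26 and 98.9% in control.

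Znrf3 and Rnf43 encode membrane ubiquitin ligases that remove Frizzled receptors from the cell surface. Znrf3 (chromosome 11, 5276324 to 5444847) had 13.2, 21.4, 16.6 and 14.8 CPM in C26 libraries, against 13.0, 17.2, 11.1 and 14.8 CPM in control libraries. The groups overlapped widely (log2 0.24, 95% interval -0.09 to 0.57, edgeR adjusted p = 0.356). Rnf43 (chromosome 11, 87662722 to 87735539) had 5, 4, 2 and 9 reads in C26 libraries, against 11, 5, 18 and 2 reads in control libraries. Of the level of this pair per kilobase, Znrf3 supplied 98.1% in C26 (96.4 to 99.3%) and 96.0% in control (91.2 to 99.0%).

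Nkd1 (chromosome 8, 88521354 to 88594884), a feedback inhibitor that binds Dishevelled, had 7, 3, 6 and 4 reads in C26 libraries and 6, 9, 9 and 7 reads in control libraries. Fitted without a filter on low counts, the 95% interval of the log2 fold change was -1.77 to 0.42 for Nkd1 and -1.90 to 0.21 for Rnf43 (edgeR adjusted p = 0.562 and 0.462), so at this depth a large fall in either gene was not distinguishable from no change.

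Lgr5 (chromosome 10, 115450311 to 115587780) encodes the R-spondin receptor that marks crypt base stem cells. It had 20, 13, 9 and 10 reads in C26 libraries 1 to 4, against 4, 6, 6 and 1 reads in control libraries 1 to 4. Every C26 library was above every control library, at 0.662 ± 0.284 CPM in C26 and 0.216 ± 0.118 CPM in control (SD, n = 4 each). The gene did not reach the filter for the main test. Fitted without that filter its log2 fold change was 1.56 ± 0.511 (SE, 95% interval 0.56 to 2.56, edgeR adjusted p = 0.0414), on 69 reads in all. Of the 32341 genes in that fit 6.02% passed. That call was lost without C26 library 1 (adjusted p = 0.22), C26 library 2 (0.0794), control library 1 (0.122), control library 3 (0.0568) or control library 4 (0.162), and the log2 value stayed between 1.24 and 1.77. It was lost too with the muscle covariate (1.49, adjusted p = 0.389). Lgr4, the broadly expressed relative, supplied 93.6% of the LGR receptor level per kilobase in C26 and 96.7% in control, and Lgr5 supplied 4.47% (2.83 to 7.45%) and 1.81% (0.341 to 2.75%).

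**Figure D2:**
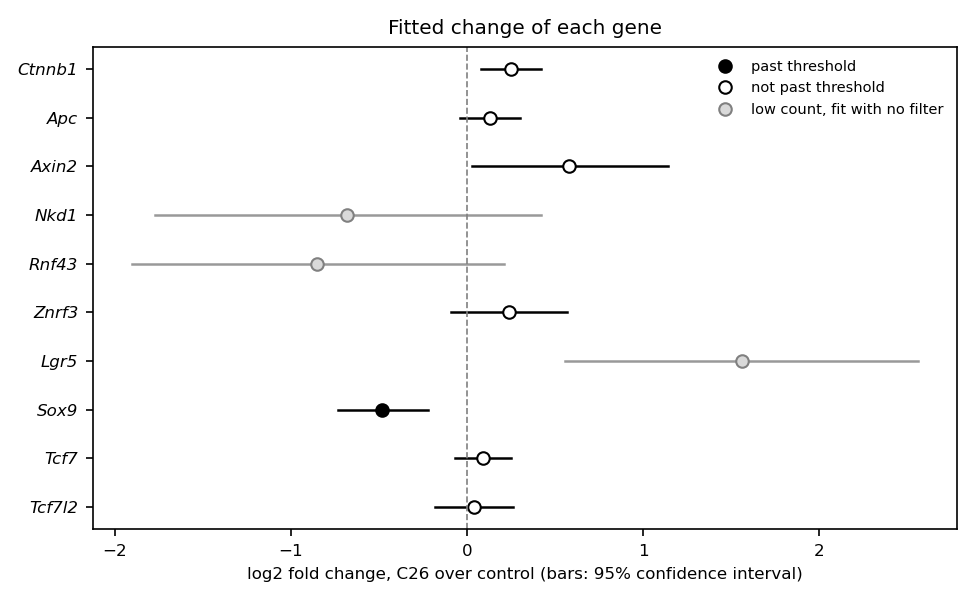
Fitted log2 fold change of C26 over control for each of the 10 genes (horizontal axis) with its 95% confidence interval. Sox9 at -0.48 is the filled point past the threshold, and the 3 grey points are low-count genes fitted without a filter.

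Tcf7 and Tcf7l2 encode DNA-binding partners of beta-catenin. Tcf7 (chromosome 11, 52252371 to 52283014), best known in T cells, had 33.6, 34.3, 34.4 and 32.9 CPM in C26 libraries and 31.2, 30.4, 31.7 and 33.9 CPM in control libraries. It was the steadiest member, with a coefficient of variation of 2.11% in C26 and 4.64% in control, and its log2 interval ran from -0.07 to 0.25 (edgeR adjusted p = 0.495). Tcf7l2 (chromosome 19, 55741820 to 55933654), the main TCF of the gut epithelium, had 20.2, 18.4, 20 and 17.4 CPM in C26 libraries and 20.5, 19.1, 15.6 and 18.6 CPM in control libraries. Its interval ran from -0.18 to 0.26 (edgeR adjusted p = 0.835). Per kilobase, Tcf7 supplied 57.4% of the TCF/LEF level in C26 and 56.6% in control, Tcf7l1 22.7% and 20.2%, Lef1 10.3% and 13.3%, and Tcf7l2 9.63% and 9.83%. Lef1 missed the threshold (log2 -0.31, edgeR adjusted p = 0.0539) with groups that did not overlap, and passed in DESeq2.

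T cell markers were scarce beside Tcf7. The CD3 chain genes Cd3d, Cd3e and Cd3g had 28, 10 and 17 reads over all 8 libraries, and 15 of 20 T cell markers had fewer than 100. None of the 20 reached the level of Tcf7 per kilobase, which averaged 12.5 CPM per kb over the 8 libraries, against 2.39 for Trbc1, the highest marker. The T cell list summed to 10.5 to 15 CPM in C26 and 10 to 18.3 CPM in control. None of its 6 tested genes passed in edgeR or DESeq2, and 1 had an unadjusted p under 0.05. DESeq2 gave 1 of the 6 no adjusted p. Whether the Tcf7 reads came from T cells was not tested.

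**Figure D3:**
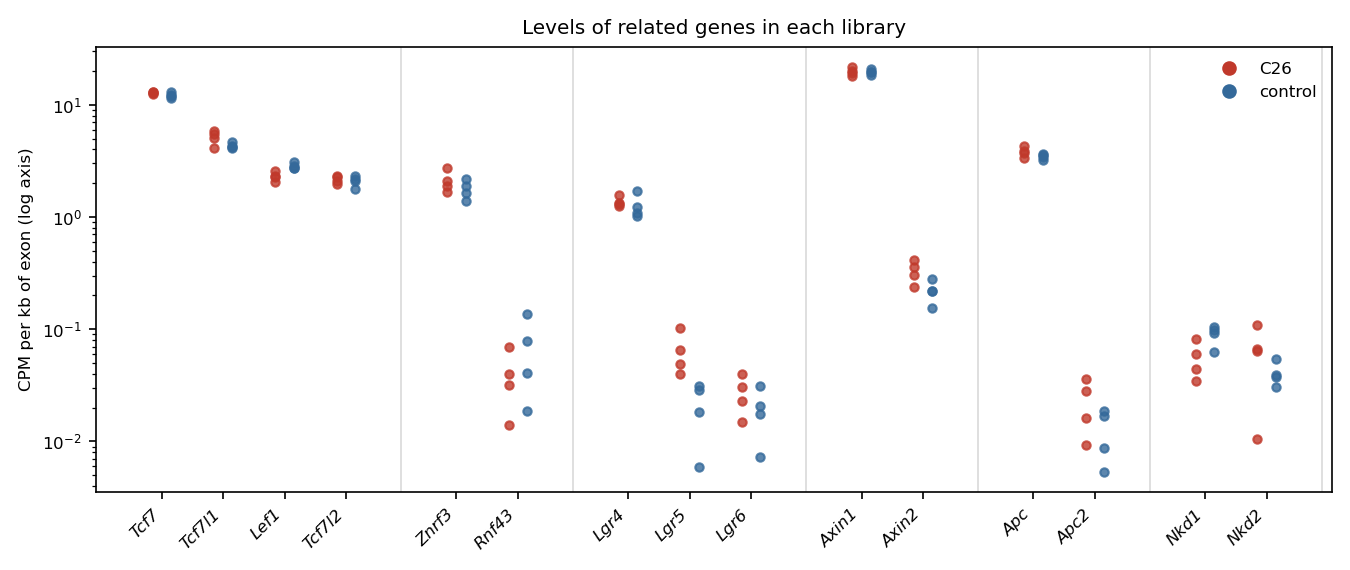
Level per kilobase of exon (log axis) of related genes in each C26 library (red, left) and control library (blue, right). Tcf7, Znrf3, Lgr4, Axin1 and Apc lead their families in both groups, while the NKD pair is low throughout.

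Beyond the 10 members, 129 other genes of the pathway and of intestinal stem cells were listed by role, and 88 of them could be tested. Of these 7 rose and 1 fell, where 3.64% of all tested genes were higher, 4.12% lower and 7.76% changed either way. Counted without direction, the 8 of 88 were near the background of 7.76%. By direction, the 7 of 88 that rose were above the background of 3.64%, and the 1 of 88 that fell was below that of 4.12%. Whether this skew exceeds chance was not tested. These 3 background shares also apply to each list by role. The median log2 fold change was 0.12, against 0.00528 over all tested genes. In 12 of the 88, or 13.6%, the groups did not overlap, against 16.1% of all tested genes. None of these 8 genes passed with the muscle covariate (1 other listed gene, Lbh, did), and Ccn4 and Ly6a alone of the 8 passed without C26 libraries 2 and 3.

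No Wnt ligand passed in edgeR, and 0 of the 7 tested had an unadjusted p under 0.05. DESeq2 called 0, but gave 3 of the 7 no adjusted p. Wnt2b had the smallest edgeR p of the 7, at 0.694 ± 0.166 CPM in C26 and 0.451 ± 0.146 CPM in control (SD, n = 4 each, edgeR adjusted p = 0.3). The other 12 of the 19 ligand genes were too low to test. Wnt5a, a ligand known mostly for signals that do not use beta-catenin, supplied 58.4% of the ligand level per kilobase in C26 and 60% in control, and Wnt6 came next with 23.3% and 22.6%. Wnt3a and Wnt9b had 0 reads. Wls, which carries Wnt proteins to the cell surface, had 430, 369, 358 and 471 CPM in C26 libraries and 351, 342, 341 and 310 CPM in control libraries. These groups did not overlap, yet Wls did not pass in edgeR (log2 0.28, edgeR adjusted p = 0.0608), though it did in DESeq2. The other 2 tested genes of ligand release passed in neither, and 1 of them had no adjusted p in DESeq2.

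Of 14 tested receptor genes 1 rose. Fzd4, a Frizzled receptor of endothelium and other tissues, had 20.5, 22, 23.4 and 18.1 CPM in C26 libraries, against 14.8, 16, 14.4 and 15 CPM in control libraries. All C26 libraries were above all control libraries (log2 0.48 ± 0.101 SE, edgeR adjusted p = 0.0108). Among the Frizzled genes Fzd2 and Fzd7 were the most abundant per kilobase, with 33.4% and 31.1% of the family in C26 and 35.5% and 33.6% in control. Of 14 tested endothelial markers, 3 rose (Ptprb, Tek and Mmrn2) and 11 did not pass in edgeR, and 5 passed in DESeq2. The list median was 0.44 on the log2 scale, with 12 of 14 values above 0. The summed levels overlapped, at 175 to 232 CPM in C26 and 140 to 211 CPM in control, with no marker at 0. Their part in the Fzd4 result was not tested. Fzd4 kept its call without any single library.

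Among inhibitors 1 of 6 tested genes rose, and 11 were too low to test. Sfrp2, a secreted Wnt antagonist made by fibroblasts, had 2.01, 1.14, 2.28 and 0.608 CPM in C26 libraries, against 0.519, 0.687, 0.445 and 0.667 CPM in control libraries (log2 1.39 ± 0.384 SE, edgeR adjusted p = 0.0375). C26 library 4 lay within the control range. The call was lost without C26 library 1 or 3 or any one control library (adjusted p up to 0.113). Of 18 tested cytoplasmic genes none passed in edgeR or DESeq2, and 2 had an unadjusted p under 0.05. Amer1, a partner of APC, had the smallest p, at 24.4 ± 2.85 CPM in C26 and 20.2 ± 2.52 CPM in control (SD, n = 4 each, edgeR adjusted p = 0.139). The median log2 fold change of the cytoplasmic list was 0.

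Of 16 tested nuclear partners 1 rose and 1 fell. Ep300, a histone acetyltransferase that serves many pathways, had 70.4, 74.2, 72.8 and 71.3 CPM in C26 libraries, against 62.1, 60.0, 57.3 and 62.1 CPM in control libraries (log2 0.26 ± 0.0652 SE, edgeR adjusted p = 0.0258). Tle3, a corepressor that TCF factors recruit, had 65.8, 61.4, 71.9 and 67.9 CPM in C26 libraries, against 73.6, 80.0, 79.5 and 84.8 CPM in control libraries (log2 -0.25 ± 0.0726 SE, edgeR adjusted p = 0.0454). For both genes the groups were apart. Ep300 was lost without C26 library 2 or 3 or control library 1, 2 or 3 (adjusted p up to 0.0889), and Tle3 without any single library but C26 library 3 (up to 0.108). Tle3 did not pass either when libraries were scaled by total count (adjusted p = 0.109) or in limma-voom (0.0859).

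Known targets of the pathway did not move together. Of 12 tested, 1 rose, and the median log2 fold change was 0.01. Ccn4, a matrix-associated growth regulator, had 125, 130, 141 and 139 CPM in C26 libraries, against 102, 110, 92.9 and 90.3 CPM in control libraries. Its groups did not overlap (log2 0.43 ± 0.0765 SE, edgeR adjusted p = 0.00445), and it kept its call without any single library. Myc had 146 ± 30.4 CPM in C26 and 180 ± 40.5 CPM in control (SD, n = 4 each, edgeR adjusted p = 0.358), and Ccnd1, the cyclin D1 gene, had 283 ± 61.9 and 287 ± 25.5 CPM (adjusted p = 0.944). Both were named after their values were seen, as were Wnt5a, Wnt6, Fzd2, Fzd7 and Lef1.

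Of 12 tested stem cell genes 3 rose and none fell, where 3.64% of all tested genes were higher and 4.12% lower. Lrig1, a stem cell marker that restrains growth factor receptors, had 160, 166, 164 and 169 CPM in C26 libraries, against 129, 136, 145 and 133 CPM in control libraries (log2 0.28 ± 0.0642 SE, edgeR adjusted p = 0.0178). Its groups were apart. Ly6a, which marks regenerating gut epithelium and many other cells, had 154, 126, 115 and 130 CPM in C26 libraries, against 95.7, 96.9, 117 and 86.8 CPM in control libraries (log2 0.40 ± 0.0992 SE, edgeR adjusted p = 0.0245). Smoc2, a matrix protein gene of crypt base cells and fibroblasts, had 2.11, 3.89, 2.14 and 1.47 CPM in C26 libraries, against 1.46, 1.06, 0.692 and 0.970 CPM in control libraries (log2 1.19 ± 0.314 SE, edgeR adjusted p = 0.0313). Lrig1 was lost without control library 1 or 2 (adjusted p up to 0.074), Ly6a without C26 library 4 or control library 1, 2 or 4 (up to 0.0709), and Smoc2 without C26 library 2 or 3 or control library 2, 3 or 4 (up to 0.1). With the muscle covariate the log2 value of Smoc2 was 0.38 (adjusted p = 0.714).

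**Figure D4:**
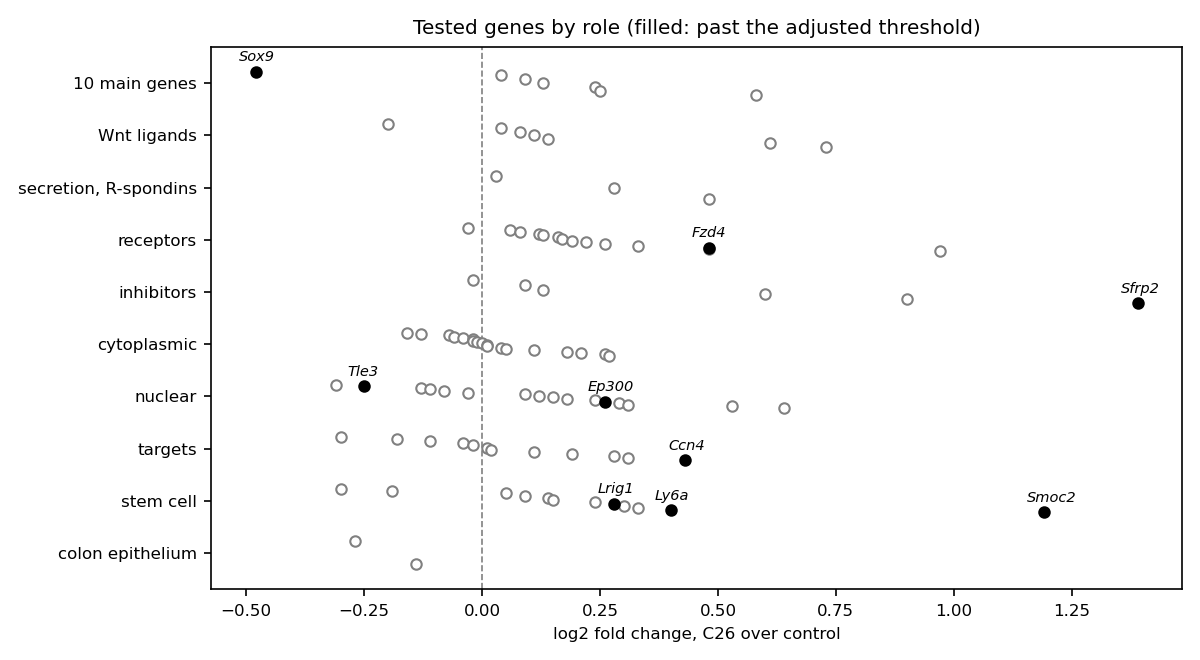
Log2 fold change of C26 over control (horizontal axis) for every tested gene, grouped by role, with filled points past the adjusted threshold. The spread around 0 is narrow for cytoplasmic genes, and Sox9 and Tle3 are the filled points below 0.

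Fibroblast markers were measured beside Sfrp2, Smoc2, Ccn4 and Ly6a. Of 16 tested, 4 rose in edgeR, among them Col5a1, Col6a3 and Mfap5, and 12 did not pass, while 7 passed in DESeq2, and the list median was 0.41 on the log2 scale. The collagen gene Col5a1 had 604 ± 69.0 CPM in C26 and 420 ± 42.8 CPM in control (SD, n = 4 each, edgeR adjusted p = 0.00419). The list summed to 7270 to 9770 CPM in C26 and 4560 to 6630 CPM in control. All C26 sums were above all control sums, and no marker was at 0. Collagen genes weighed most in the sum, with Col3a1 alone at a mean of 3640 CPM in C26, of a list mean of 8540 CPM. The log2 value was above 0 for 15 of the 16 markers, and the groups were apart for 5. Their part in these results, and in that of Lgr5, was not tested. Macrophage markers summed to 1020 to 1520 CPM in C26 and 1130 to 1680 CPM in control, NK cell markers to 21.5 to 25.2 and 16.3 to 30.4 CPM, and adipocyte markers to 35.1 to 52 and 35 to 48.4 CPM. None of these lists had a gene past the threshold in edgeR. At an unadjusted p under 0.05 they had 5, 0 and 0 genes, and DESeq2 called the same numbers. The 5 macrophage genes were Adgre1, C1qa, C1qb and C1qc, lower in C26, and Mertk, higher. Of the 12 macrophage markers 10 had a log2 value below 0, with a median of -0.16. Over all 15755 tested genes, 4030 had an unadjusted p under 0.05 in edgeR, and DESeq2 called 11.5%. Keratinocyte and hair follicle markers, which belong to skin cells that also use Lgr5 and Sox9, summed to 1.09 to 1.72 CPM in C26 and 0.727 to 1.84 CPM in control, and 6 of 12 were at 0, among them Krt5 and Krt15.

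**Figure D5:**
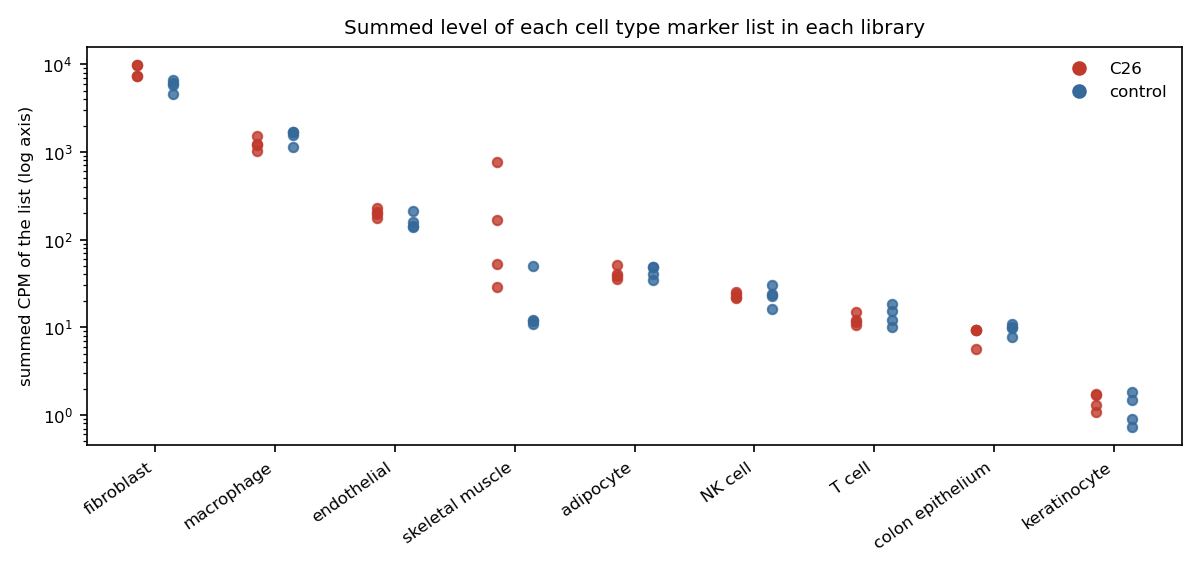
Summed CPM of each marker list (log axis) in each C26 library (red, left) and control library (blue, right). The fibroblast list is apart between groups, skeletal muscle spreads from 29.1 to 760 CPM within C26, and colon epithelium stays at or below 10.9 CPM in all 8 libraries.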

How the data were processed

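Polyadenylated RNA was sequenced from 8 MC38 tumours, 4 per group. The deposited values are unnormalized read counts, 1 row per Ensembl identifier. The submitters' processing notes list HISAT2 2.2.1, featureCounts 2.0.1, Trim Galore 0.6.7 and the mm10 build. The design text instead lists STAR and RSEM, with Picard and Cutadapt. The sources used here do not give the annotation release, the strand setting or the handling of multi-mapped reads, so antisense overlaps (Ctnnb1 with Ulk4, 423 reads) cannot be separated.

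Symbols, positions and summed exon lengths came from GENCODE M21 on GRCm38, which gave 52073 of 56691 identifiers a symbol. The rest held 0.769% of counts. Genes kept by filterByExpr (minimum count 10) were normalized with TMM and tested in edgeR 4.0.16 (R 4.3.3) by a quasi-likelihood test with robust estimation and group as the sole term, two-sided, with Benjamini-Hochberg adjustment over all 15755 genes. Intervals are 95% intervals of the fit. The fit was tested on simulated data. It recovered 19.4% of genes changed 1.25-fold, 55.2% of those changed 1.5-fold and 68.2% of those changed 2-fold. Of its 102 calls 7 were false. Every pair of libraries differed by more than counting noise (lowest chi-square per degree of freedom 6.27). A count of 0 allows 3 counts, for counting error only.

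The members and lists were chosen with earlier results of these data known. The text names every member, up to 6 genes past the threshold per pathway list or else the gene with the smallest p, and up to 3 markers per cell type list. Alternatives were RLE factors, total library size, no filter, 1 CPM in 4 libraries, DESeq2 1.42.0, limma-voom (limma 3.58.1), the replicate number as a block, a covariate from the muscle list (its mean log2 CPM), and fits with libraries left out. Fits of Lgr5 without a filter combined with these were added after its values were seen.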

Additional observations from a re-analysis of the deposited data

Results flagged for a closer look

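A sample far from the other 3 of its group was found in 6 of 94 groups of values examined, a screen that flags about 1 in 20 groups by chance. Control library 4 was high for Ctnnb1, at 330 CPM. Control library 2 was low for Sox9, at 72.9 CPM. The same library was high for the summed skeletal muscle markers, at 49.7 CPM, and held all control reads of Myh1, at 0.264 CPM. Control library 4 was high for the summed cytoplasmic Wnt genes, at 1753 CPM. C26 library 2, the highest in muscle markers, was low for the summed colon epithelium list, at 5.61 CPM.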

How the results depend on the processing

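Sox9 kept its sign under all 17 alternatives. It did not pass with the muscle covariate (-0.19) or without C26 libraries 2 and 3 (-0.44), and its log2 value was -0.59 to -0.41 when each library was left out. Ctnnb1 passed with total library size (0.32), no low-count filter (0.25) and limma-voom (0.27), and without C26 library 1 or control library 4 (0.21 to 0.32 over single libraries left out). With the muscle covariate the values of Apc (-0.02) and Znrf3 (-0.26) changed sign, and that of Tcf7l2 was -0.04 to 0.09 over single libraries left out. The number of members past the threshold was 2 with total library size, 3 with no filter and 2 with limma-voom. These fits called 12.4%, 6.02% and 9.75% of all genes tested. With the muscle covariate 0 members passed, and 0 without C26 libraries 2 and 3, where 0.774% and 5.5% of all genes were called. Over single libraries left out, 0 to 1 members passed (Ctnnb1 in place of Sox9 without C26 library 1 or control library 4). Those fits called 4.03% to 9.1% of all genes. At an unadjusted edgeR p under 0.05 there were 0 members with the covariate, and 2601 of all 15755 genes tested. Without C26 libraries 2 and 3 there were 4 members, and 3683 of 16310 genes. DESeq2 on all libraries called 1 member, and 11.5% of all genes. Of the other listed genes 18 passed with total library size, all higher in C26, 14 with no filter, 1 with the muscle covariate and 2 to 9 over single libraries left out. Of all genes 1949, 1948 and 122 passed in these fits, and 643 to 1457 over single libraries left out. Scaling by total library size moved the median log2 value of all tested genes to 0.078, from 0.005 in the main fit. The TMM factors which that scaling leaves out were 1.021 to 1.033 in C26 and 0.9673 to 0.9867 in control. The cause of the other differences between fits was not tested.

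Deviations of same-numbered libraries correlated weakly, at -0.02, 0.13, -0.02 and 0.09. With so few libraries, these values cannot decide whether the replicate numbers pair the samples. With the replicate block 1184 genes, 6 of the other listed genes and 1 member (Sox9, log2 -0.48) passed. Sfrp2, Tle3 and Lgr5 (fitted without a filter, log2 1.57) did not pass with the block (edgeR adjusted p = 0.0518, 0.0581 and 0.0509). Of the C26 libraries, 2 and 4 correlated best with the control library of their own number. Depth limited Lgr5, Nkd1 and Rnf43, which had 51 to 69 reads in all.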
